A study of Mus musculus with 2 samples.

Results

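The transcripts described here come from 39 nuclear genes of mitochondrial proteins, out of 3134 genes in the table. They were chosen by symbol alone, from name stems for the respiratory chain complexes and their assembly factors (Nduf, Sdh, Uqcr, Cox followed by a digit), ATP synthase (Atp5), protein import (Timm, Tomm), the mitochondrial ribosome (Mrpl, Mrps), the carriers (Slc25), the fuel-oxidizing dehydrogenases (Bck, Pdh, Dld, Idh, Ogdh, Acad), coenzyme Q synthesis (Coq), and membrane fusion, channels, proteases and RNA factors (Mfn, Opa1, Letm, Immt, Vdac, Mtch, Lonp, Tbrg4). The same stems match 312 protein-coding genes in the RefSeq table of GRCm38.p6, and the other 273 were not analysed here. The 39 genes fall into 12 functional groups, and the coenzyme Q stem had 0 listed genes. Lonp2 matches the stem of the Lon proteases, but its product is the peroxisomal Lon protease, so 38 of the 39 products are mitochondrial.

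Enhanced crosslinking and immunoprecipitation (eCLIP) was run on NIH3T3, an established mouse fibroblast line. Cells were crosslinked with ultraviolet light of 254 nm at 400 mJ/cm2, the RNA was trimmed with RNase I, and RNA was recovered from the part of the membrane 75 kDa above the band of HP1 alpha. An HP1 alpha antibody was used for 1 library, and 1 library, labelled as input, was made with none. Both came from the same untreated line, with no genotype or treatment that differs between them, and the file heads the columns MEF and mock rather than NIH3T3 and input. Of 9 fibroblast markers, 7 were listed (not Pdgfra or Thy1), against 0 of 4 immune, 0 of 4 epithelial and 0 of 3 endothelial markers.

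Almost all mitochondrial proteins are encoded in the nucleus. Their pre-mRNAs are made and spliced on chromatin, the mRNAs are exported and translated by cytosolic ribosomes, and the proteins are imported through channels in the outer and inner mitochondrial membranes. Inside, dehydrogenases of the citric acid cycle and of amino acid breakdown feed electrons to the respiratory chain, whose proton gradient drives ATP synthase. HP1 alpha is a nuclear protein that binds methylated histone tails in heterochromatin and has an RNA-binding hinge.

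The table holds 513965 counts for HP1 alpha against 830031 for the input, so a gene with equal shares in both has 0.619 HP1 alpha counts for each input count. Each ratio below sets the gene's share of the HP1 alpha counts over its share of the input counts, with an exact 95% interval that covers counting error only. A gene is called higher or lower where the ratio passes 2-fold (log2 scale, pseudocount of 0.5 counts) and the interval excludes 1. With 1 library per group, no difference could be set against the spread between replicates, and no p-value was computed. A gene is listed only where its larger count is at least 100. A gene with 61 or fewer HP1 alpha counts is therefore bound to have a ratio below 1, and a gene under 100 counts in the input is bound to have one above 1. This limit fixed a ratio below 1 for 15 of the 39 genes and above 1 for 2 (Bckdhb and Cox16), and left the sign free for 22.

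Of the 39 genes, 31 had a ratio below 1, with 15 of them fixed there by the listing limit. So did 2166 of all 3134 listed genes, with 507 fixed in the same way. The other 8 (20.5%) had a ratio above 1, against 30.9% of all listed genes. The spans of these 8 ran from 16.6 kb (Atp5f1) to 199 kb (Bckdhb). Summed over the 39 genes, the transcripts had 3558 counts in the HP1 alpha library against 6468 in the input. These were 0.692% (0.670 to 0.715, exact binomial) against 0.779% (0.760 to 0.798) of the library totals. The ratio of these shares was 0.888 (0.853 to 0.926), and it passed to 1.02 with TMM factors and 1.03 with DESeq2 factors, which raised every log2 ratio by 0.20 and 0.21. Among the 39 genes, 2 were higher (Bckdhb and Cox16), where 2.36% of all listed genes were, and 2 were lower (Timm23 and Tbrg4), where 0.830% were. The listing limit fixed the side of 1 for each of these 4. The interval lay above 1 for 4 genes, against 15.4% of all listed genes, and below 1 for 16, against 32.6%. The median ratio was 0.825, against 0.865 over all listed genes. Among the 22 genes with a free sign it was 0.871, against 0.908 for the 2611 such genes in the whole table, and the interval lay below 1 for 27.3% of those 22 genes against 27.8% of the 2611. By this measure the transcripts as a group sat close to the table as a whole. The 4 called genes are described next. Each had under 100 counts in the library where it was lower, so a minimum of 100 counts in both libraries left them out. Of the 11 genes that passed this minimum, 0 were called.

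**Figure D1:**
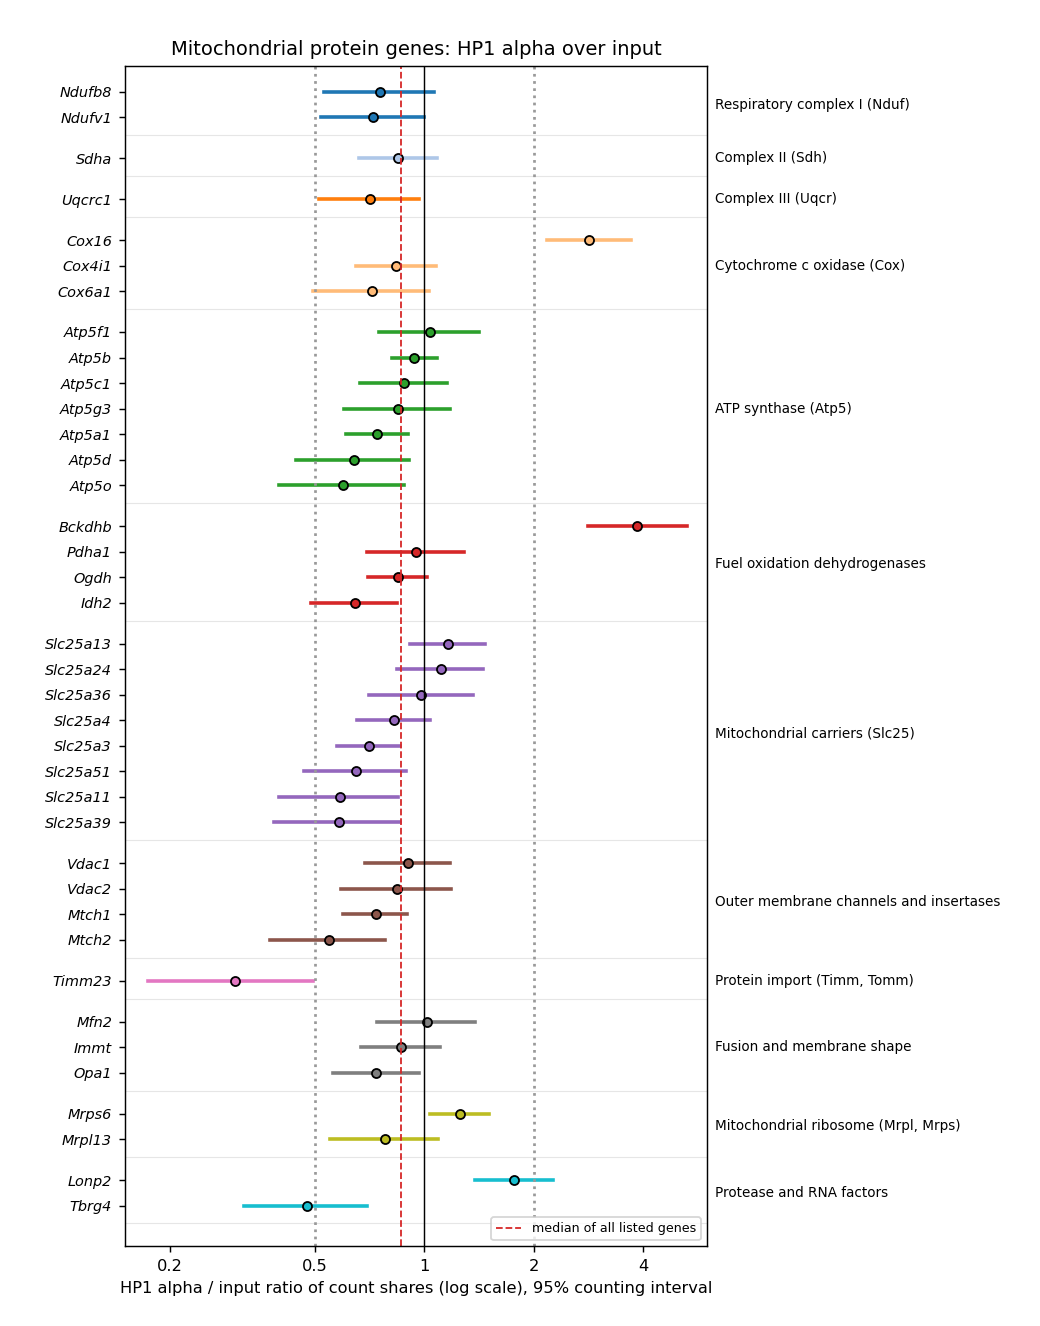
Ratio of HP1 alpha over input for 38 of the 39 genes by functional group (1 is not reported here), on a log axis, with points for the ratio, bars for the 95% counting interval, dotted lines at 2-fold and a dashed line at the median of all listed genes. Bckdhb and Cox16 lie right of the 2-fold line and Timm23 lies left of the other genes.

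Bckdhb encodes the beta subunit of the branched-chain ketoacid dehydrogenase, the complex that commits leucine, isoleucine and valine to breakdown. It had 145 counts in the HP1 alpha library against 61 in the input, or 282 and 73.5 CPM (counts scaled to the same listed total). Its ratio was 3.84 (2.83 to 5.27), and the authors' deposited table gives 3.95 with its own scaling to total mapped reads. The gene (ENSMUSG00000032263.10) spans 199 kb on chromosome 9, from 83925111 to 84124240 in GRCm38.p6. Relative to the 200 listed genes nearest in span, the ratio was 2.96 times their median and above all of them. Bckdhb entered the table only through its HP1 alpha count, and 16 of all 3134 listed genes had under 100 input counts. This rank is therefore a description only. A lncRNA gene of 21783 bases, Gm46124, lies inside Bckdhb and was not analysed here, and whether reads from it were counted with Bckdhb was not tested.

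Cox16 encodes a small inner-membrane factor that assembles cytochrome c oxidase. It had 160 counts in the HP1 alpha library against 91 in the input and a ratio of 2.84 (2.18 to 3.71). The authors' deposited table gives 2.92. The gene (ENSMUSG00000091803.3) spans 126 kb on chromosome 12, from 81358852 to 81485137, and lies whole inside the listed gene model Gm20498, which runs from 81358852 to 81532911. Gm20498 had 208 counts against 150 and a ratio of 2.24 (1.81 to 2.78), and the 2 values may not be independent. Against genes of like span Cox16 stood at 2.71 times the median, above 99.5% of them.

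Timm23 was the lowest of the 39. It encodes the channel subunit of the inner-membrane translocase, through which presequence proteins enter the matrix. It had 19 counts in the HP1 alpha library against 102 in the input, or 37.0 and 123 CPM, and a ratio of 0.301 (0.174 to 0.494). Only 0.0319% of the other listed genes had a lower ratio. The gene (ENSMUSG00000013701.8) spans 21.7 kb on chromosome 14, from 32180166 to 32201891. Its ratio was 0.386 of the median of genes of like span, below all 200 of them. Timm23 was listed only through its input count, so this rank is a description only. It was the only listed gene of the import stems, so the import machinery is represented by this transcript alone.

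Tbrg4, also known as Fastkd4, encodes a factor that stabilizes mitochondrial mRNAs. It had 36 counts against 122 and a ratio of 0.477 (0.319 to 0.696). Unlike Timm23, it no longer passed 2-fold under TMM scaling, DESeq2 scaling, a pseudocount of 5 counts or the comparison with genes of like span, where its log2 ratio was -0.86, -0.85, -0.94 and -0.59.

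**Figure D2:**
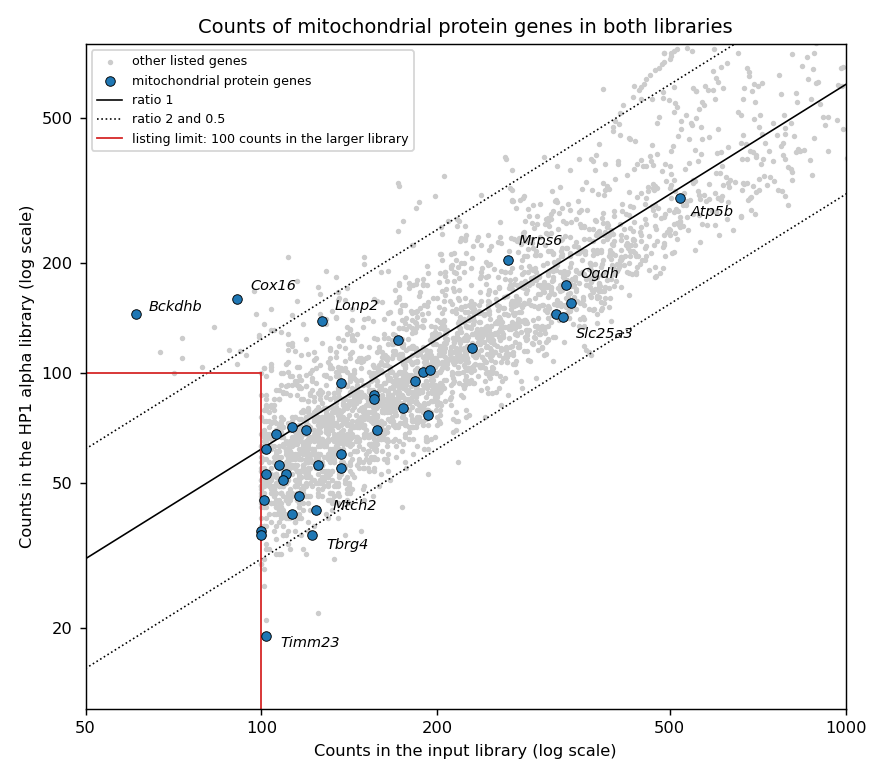
Counts in the HP1 alpha library (vertical) against counts in the input (horizontal) on log axes, with the 39 genes in blue and all other listed genes in grey. The most abundant grey genes are outside the axes, and the red corner marks the limit of 100 counts that keeps low genes out of the table. Bckdhb and Cox16 lie left of 100 input counts, and 15 blue points lie at 61 or fewer HP1 alpha counts.

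The respiratory chain and ATP synthase contributed 15 transcripts, and apart from Cox16 none of them was higher or lower. All 15 held 1390 counts in the HP1 alpha library against 2543 in the input, a share ratio of 0.883 (0.826 to 0.943). Their median ratio was 0.756. Without Cox16, which had the highest ratio of the 15, the other 14 held 1230 counts against 2452. The share ratio of these 14 was 0.810 (0.756 to 0.868). The median ratio of these 14 was 0.749, and 13 of them had ratios below 1 (11 with TMM or DESeq2 factors), 7 of which the listing limit fixed there. These 14 genes are short, with a median span of 7.11 kb against 48.2 kb for all listed genes, and relative to genes of like span their median was 1.05, with 8 above and 6 below.

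Complex I, which oxidizes NADH, is described by 2 subunits, which lay close together and which the listing limit fixed below 1. Ndufv1, which carries the NADH-binding flavin, had 56 counts against 125 and a ratio of 0.723 (0.518 to 0.999). Ndufb8, a supernumerary subunit of the membrane arm, had 51 against 109 and 0.756 (0.531 to 1.06). The intervals overlapped, and neither excluded 1 under TMM or DESeq2 scaling.

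Sdha, the flavoprotein of succinate dehydrogenase, had 102 counts against 194 and a ratio of 0.849 (0.661 to 1.08). Uqcrc1, a core subunit of the cytochrome bc1 complex, had 60 against 137 and 0.707 (0.513 to 0.965), fixed below 1 by the listing limit. Cytochrome c oxidase itself was represented by Cox4i1, a regulatory subunit, which had 95 counts against 183 and a ratio of 0.838 (0.647 to 1.08). Cox6a1, another nuclear-encoded subunit, had 45 against 101 and 0.720 (0.495 to 1.03). The interval of Cox16 overlapped neither, but the listing limit fixed Cox16 above 1 and Cox6a1 below 1, so this gap is given as a description only. Cox4i1 and Cox6a1 span 5.99 and 3.31 kb.

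ATP synthase had 7 of the 17 annotated genes under its stem in the table. Atp5b, the catalytic beta subunit, was the most abundant of all 39 transcripts, with 303 counts in the HP1 alpha library against 521 in the input and a ratio of 0.939 (0.812 to 1.08), which moved above 1 with TMM and DESeq2 factors. Atp5a1, the alpha subunit that alternates with beta in the catalytic ring, had 156 against 339 and 0.743 (0.611 to 0.901). The alpha and beta intervals overlapped, though only the alpha interval excluded 1. Among the stalk subunits, Atp5c1 (gamma) had 85 against 156 and 0.880 (0.667 to 1.15), which also turned under both scalings. Atp5f1 (subunit b, now Atp5pb) had 68 against 106 and 1.04 (0.753 to 1.42). The lowest was Atp5o, the subunit that joins the catalytic head to the peripheral stalk, with 37 against 100 and 0.598 (0.398 to 0.879). The other 2 subunits, Atp5d and Atp5g3, had 0.640 and 0.845. All 7 intervals overlapped one another, and differences between subunits were not tested. Of these 7 genes, 3 had intervals below 1 with the listed totals, and 0 had under TMM or DESeq2 scaling. Relative to genes of like span 5 stood above 1 and 2 below, and 0 had an interval below 1. Atp5b alone had an interval above 1 there, at 1.29 times the median. The listing limit fixed Atp5o, Atp5d and Atp5g3 below 1.

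Among the dehydrogenases that feed the chain, Bckdhb was higher and none was lower. Pdha1, the catalytic alpha subunit of pyruvate dehydrogenase, had 70 counts in the HP1 alpha library against 119 in the input and a ratio of 0.95 (0.697 to 1.29), which moved above 1 with TMM and DESeq2 factors. Ogdh, the oxoglutarate dehydrogenase of the citric acid cycle, had 174 against 332 and 0.846 (0.700 to 1.02). Idh2, the NADP-dependent isocitrate dehydrogenase of the matrix, had 77 against 193 and 0.644 (0.488 to 0.843). Its interval stayed below 1 under TMM and DESeq2 scaling, but not relative to genes of like span, where Idh2 stood at 0.811 of their median. The ratio of Bckdhb, which the listing limit held above 1, was 4.04 times that of Pdha1, 4.54 times that of Ogdh and 5.96 times that of Idh2, as a description only. Idh2 and Pdha1 span 23.8 and 16.2 kb, Ogdh 67.5 kb and Bckdhb 199 kb.

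Of the 8 Slc25 carriers, which move metabolites across the inner membrane, none was higher or lower. The highest were Slc25a13, an aspartate/glutamate carrier, at 123 counts against 171 and a ratio of 1.16 (0.914 to 1.47), and Slc25a24, an ATP-Mg/phosphate carrier, with 94 against 137 and 1.11 (0.843 to 1.45). Slc25a36, a pyrimidine nucleotide carrier, had 62 against 102 and 0.982 (0.704 to 1.36), and its direction turned under TMM, DESeq2 and the authors' scaling. The adenine nucleotide translocator Slc25a4 had 117 against 229 and 0.825 (0.655 to 1.04). For the other 4 the interval lay below 1, but the listing limit fixed Slc25a51, Slc25a11 and Slc25a39 on that side. Slc25a3, the phosphate carrier that supplies ATP synthase, had 143 against 328 and 0.704 (0.574 to 0.859). Slc25a51, the NAD carrier, had 55 against 137 and 0.648 (0.465 to 0.893). Slc25a11, the oxoglutarate/malate carrier, had 41 against 113 and 0.586 (0.40 to 0.845). Slc25a39, a glutathione carrier, had 36 against 100 and 0.581 (0.386 to 0.859). The interval of Slc25a13, which spans 176 kb, did not overlap that of Slc25a3, which spans 7.47 kb. Relative to genes of like span this gap was gone, with 0.939 for Slc25a13 and 0.972 for Slc25a3, and no carrier had an interval that excluded 1. Under TMM and DESeq2 scaling, 3 of the 4 (not Slc25a51) kept an interval below 1.

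The 4 transcripts of outer-membrane channels and insertases had ratios below 1, which the listing limit fixed for Vdac2 and Mtch2 and which turned for Vdac1 under TMM and DESeq2 scaling. The porins Vdac1 and Vdac2, the main metabolite channels, had 87 against 156 and 53 against 102 counts, with ratios of 0.901 (0.685 to 1.18) and 0.839 (0.590 to 1.18). Mtch1 and Mtch2, which insert helical proteins into this membrane, had 145 against 319 and 42 against 124 counts, with ratios of 0.734 (0.599 to 0.896) and 0.547 (0.376 to 0.782). Within each pair of paralogues the intervals overlapped. Mtch2 kept an interval below 1 relative to genes of like span, where it stood at 0.704 of their median.

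Of the 3 genes that shape and fuse the membranes, none was higher or lower. Mfn2, the outer-membrane mitofusin, had 71 counts against 113 and a ratio of 1.01 (0.743 to 1.38). Opa1, its counterpart at the inner membrane, had 80 against 175 and 0.738 (0.559 to 0.967). Immt, the core of the cristae junction complex, had 101 against 189 and 0.863 (0.671 to 1.10). The interval of Opa1 no longer excluded 1 under TMM or DESeq2 scaling or relative to genes of like span. Opa1 spans 83.8 kb and stood at percentile 12.5 of genes of like span.

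Of the mitochondrial ribosome, 2 of 78 annotated genes were listed. Mrps6, a protein of the small subunit, had 205 counts in the HP1 alpha library against 264 in the input and a ratio of 1.25 (1.04 to 1.51). Mrpl13, of the large subunit, had 53 against 110 and 0.778 (0.550 to 1.09), and the intervals overlapped. The listing limit fixed Mrpl13 below 1. Mrps6 (chromosome 16, 92058336 to 92112227) shares 29138 bases with Slc5a3, the listed gene of a myo-inositol transporter, which had 145 counts against 188 and a ratio of 1.25 (0.996 to 1.56). With strand and counted features unknown, it cannot be told how reads of the shared bases were assigned, so these 2 values may not be independent. Lonp2, the peroxisomal protease, had 139 against 127 and 1.77 (1.38 to 2.27), above 98.0% of genes of like span, and passed 2-fold under TMM and DESeq2 scaling.

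The ratio was larger for the longer of the 39 genes, as it was across the table. All 3 genes over 100 kb had ratios above 1, with a median of 2.84. Of the 13 genes of up to 10 kb, 0 did, with a median of 0.723. The medians in between were 0.715 for 9 genes of 10 to 20 kb, 0.871 for 10 genes of 20 to 50 kb and 1.05 for 4 genes of 50 to 100 kb. Bins this thin rest on single genes. The listing limit fixed much of the contrast between the longest and shortest bins. It held Bckdhb and Cox16 above 1. Among the shortest genes it held Atp5g3, Ndufb8, Ndufv1, Cox6a1, Atp5d, Atp5o, Slc25a11 and Slc25a39 below 1. The genes outside the list gave 0.732, 0.743, 0.807, 0.890 and 1.18 from the shortest to the longest bin. Across the 39 genes Spearman's rho between ratio and span was 0.60 and Pearson's r with the log10 of span reached 0.62, beside 0.61 and 0.60 across all 3089 listed genes with a known span. Without Bckdhb, Cox16 and Lonp2, rho was 0.50 and r was 0.38 over 36 genes, and over the 22 genes with a free sign they were 0.51 and 0.50. These are correlations across genes of 2 libraries, which share depth and the listing limit and are not replicates. Relative to genes of like span the median ratio of the 39 became 1.03, with 20 above and 19 below. In that comparison 2 genes stayed higher (Bckdhb and Cox16) and 1 stayed lower (Timm23). Each of them was listed through only 1 of the libraries. The share of all listed genes called in that comparison is not given here.

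**Figure D3:**
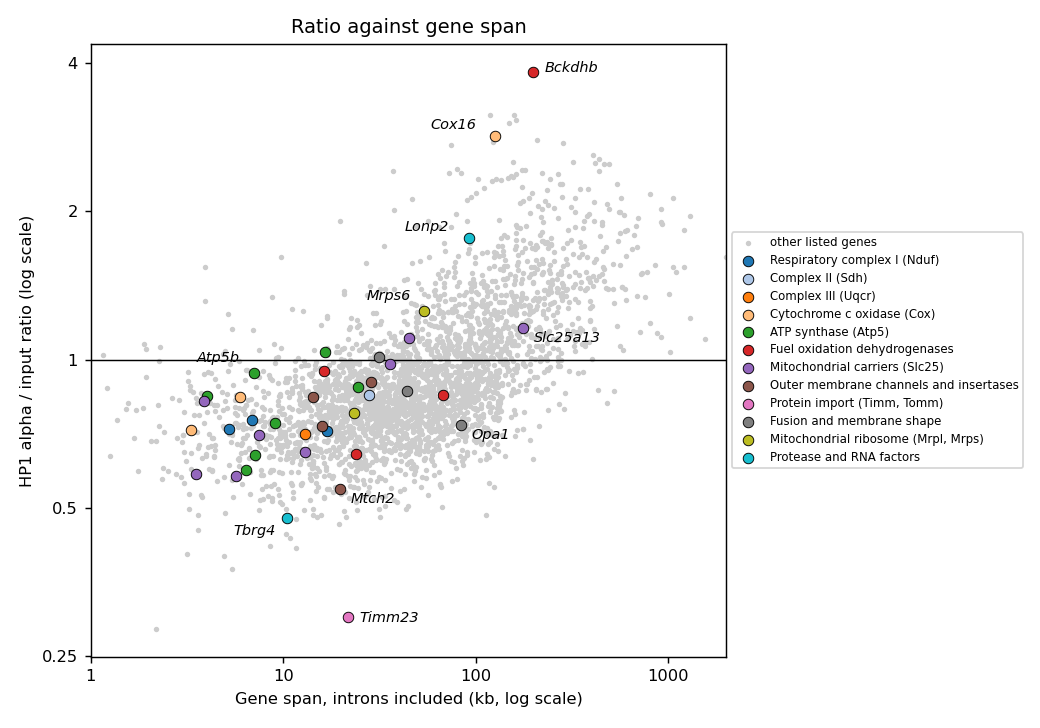
Ratio of HP1 alpha over input against gene span from first to last base, introns included, on log axes, with the 39 genes coloured by functional group and all other listed genes in grey. The coloured points follow the grey cloud, while Bckdhb and Cox16 lie at its upper edge and Timm23 lies far below it.

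Further nuclear genes of mitochondrial function, outside the symbol stems, were taken from 6 lists. Of their 171 genes, 36 were in the table. Among these, 1 was higher (2.36% of all listed genes) and 1 was lower (0.830%), and the interval lay above 1 for 4 (15.4%) and below 1 for 14 (32.6%). Their median ratio was 0.810, and 10 of them were bound below 1 by the listing limit. Mcu, the pore of the calcium uniporter, was the higher gene, with 393 counts in the HP1 alpha library against 305 in the input and a ratio of 2.08 (1.79 to 2.42). It spans 170 kb, and relative to genes of like span it stood at 1.71 times their median, under 2-fold. Pnpt1, the polynucleotide phosphorylase that degrades mitochondrial RNA, was the lower gene, with 46 against 155 and 0.479 (0.337 to 0.670). The listing limit fixed Pnpt1 below 1, and it was not called lower under TMM or DESeq2 scaling.

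The other genes named from these lists were among the most abundant. Chchd3, of the cristae junction complex, had 243 counts against 307 and a ratio of 1.28 (1.08 to 1.52). Oxct1, which activates ketone bodies, had 190 against 281 and 1.09 (0.904 to 1.32), and Mthfd1l, of mitochondrial folate metabolism, had 162 against 260 and 1.01 (0.822 to 1.23). Of these, only the interval of Chchd3 excluded 1. By list, the median ratio was 0.762 for 4 genes of the citric acid cycle and pyruvate entry, 0.888 for 8 of fatty acid and amino acid oxidation, 0.587 for 3 of mitochondrial DNA, transcription and translation, 0.820 for 7 proteases and chaperones, 0.824 for 10 of dynamics, calcium and mitophagy, and 0.871 for 4 nuclear regulators. All 6 medians lay below 1, as did that of all listed genes.

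**Figure D4:**
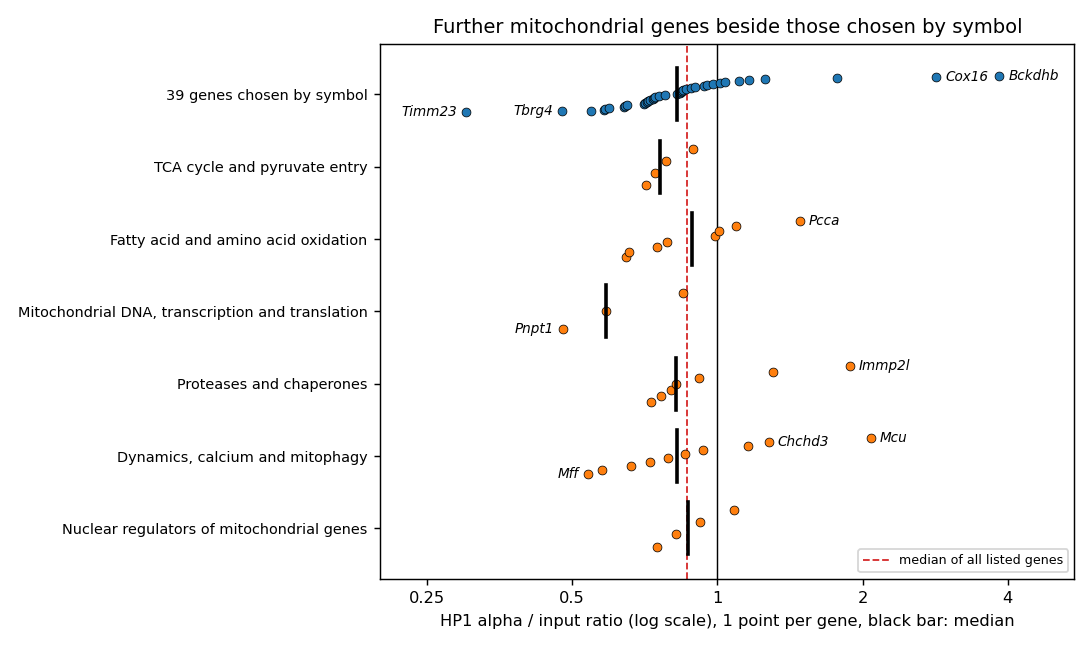
Ratio of HP1 alpha over input for the 39 genes chosen by symbol and for 36 further mitochondrial genes in 6 lists, on a log axis, with 1 point per gene, a black bar at each median and a dashed line at the median of all listed genes. Mcu and Pnpt1 are the outermost of the further genes, and no list median lies above 1.

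Compared with other groups of the table, the 39 genes lay between 2 of them by median ratio and by share ratio. The 13 cytosolic ribosomal protein genes, even shorter with a median span of 3.81 kb, had a median ratio of 0.692 and a share ratio of 0.699 (0.647 to 0.756). The interval of the 39 genes' share ratio, 0.853 to 0.926, did not overlap it. The 36 solute carriers outside the Slc25 family, with a median span of 31.6 kb, had a median ratio of 0.831 and a share ratio of 0.973 (0.933 to 1.01). The listing limit fixed a ratio below 1 for 9 of the 13 ribosomal protein genes, 15 of the 39 genes and 12 of the 36 carriers. Relative to genes of like span the 3 medians were 1.03 for the 39 genes, 0.939 for the ribosomal protein genes and 1.02 for the carriers. This was not the same order.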

How the data were processed

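eCLIP was measured in 1 HP1 alpha library and 1 input library of NIH3T3 cells. The authors deposited 1 table of read counts per gene, with a fold column, normalized to total mapped reads per the file headers, which equals 1.66 times the count ratio for all genes. STAR 2.6.0c, featureCounts and GRCm38 are named per the submitters' processing notes. The sources used here name no settings, strand, counted features or removal of PCR duplicates. Columns of unmapped samples numbered 0. The depth of each library is known only as its listed total.

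Counts were scaled to the listed totals, and ratios, exact Clopper-Pearson 95% intervals and calls were computed on all 3134 genes (Python 3.11.15, scipy 1.17.1) with a pseudocount of 0.5. Intervals cover counting error only, since reads may be PCR copies. Over the 39 genes the median interval spanned 1.85-fold from bound to bound. TMM factors came from edgeR 4.0.16 and size factors from DESeq2 1.42.0. No test was possible with 1 library per group. The calls were tested on simulated data. Spans came from RefSeq GRCm38.p6, where 38 of the 39 genes matched by symbol and 1 by synonym, and may differ from the annotation used for counting. With strand and counted features unknown, reads of overlapping and antisense genes cannot be told apart.

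Named genes were those higher or lower, the 10 with the highest lower and the 10 with the lowest upper interval bounds, the 5 most abundant, up to 4 most abundant per group and those under 100 input counts, and of the further lists those called and the 6 most abundant. Atp5d and Atp5g3 fall outside it and complete their complex. Some genes that the rule takes are not reported here, though they count in the totals and medians. Members and lists were chosen with earlier results of these data known.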

Additional observations from a re-analysis of the deposited data

How the results depend on the processing

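No paired analysis was possible because only 1 library stands on either side. The 2 higher genes became 3 with TMM or DESeq2 factors or at 1.5-fold, each time with Lonp2 added (over all listed genes, 74 became 127 and 132 with these factors), 4 with an interval above 1 alone, 1 without genes that overlap another listed gene, and 0 at minimums of 100 counts in both libraries or 400 counts in sum. The 2 lower genes became 1 (Timm23) with TMM factors, DESeq2 factors, a pseudocount of 5 or against genes of like span, 9 at 1.5-fold, 16 with an interval below 1 alone, and 0 at those 2 minimums, which left 11 and 6 genes. The median log2 ratio, -0.27, was -0.077 with TMM factors, -0.065 with DESeq2 factors, -0.35 without overlapping genes and 0.045 against genes of like span. The share ratio, 0.888, was 1.02 with TMM factors, 1.03 with DESeq2 factors and 0.844 without overlapping genes. Intervals below 1 numbered 7 with either factor, where 13.7% (TMM) and 12.4% (DESeq2) of all listed genes had one. Lower calls over all listed genes went down to 9 with either, from 26. Of settings chosen after seeing the data, leaving out the 3 genes of highest ratio gave 0 higher genes, a median of -0.38 and a share ratio of 0.813. Keeping the 22 genes with a free sign gave 0 higher, 0 lower and a median of -0.19. Among the 2611 such genes of the whole table, 60 were higher and 1 was lower. The zeros follow from leaving the called genes out, and scaling shifts every log2 ratio by a constant. For 1.5-fold and for the 2 minimums, the shares over all listed genes are not given here. The authors' constant, the total without the 10 most abundant genes and the removal of Lonp2 kept the calls. Genes near 100 counts have the widest intervals, up to 2.84-fold from bound to bound.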

Other observations

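CPM per length of gene separated these transcripts more than the ratio did, but this measure divides by span. Span ran from 3.31 to 199 kb, while input counts ran from 61 to 521. The wider spread therefore follows largely from span, and whether introns were counted is unknown. In CPM per kb of gene span, Atp5b had 83.2 for HP1 alpha against 88.6 for the input, and Slc25a4 had 58.4 and 70.8. At the other end Bckdhb had 1.42 and 0.369, Slc25a13 had 1.36 and 1.17, and Cox16 had 2.47 and 0.868. Bckdhb was therefore among the sparsest of the 39 genes per kb in both libraries while having the highest ratio.

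RefSeq places a snoRNA gene inside 5 of the 39 genes, namely Tbrg4, Timm23, Atp5b, Atp5c1 and Slc25a3. These include both lower genes, but the other 3 had ratios of 0.939, 0.880 and 0.704. The median ratio of the 5 was 0.704, against 0.832 for the other 34 genes, and relative to genes of like span the medians were 0.972 and 1.04. Whether reads from the snoRNAs entered the host counts was not tested. This grouping was chosen after the values were seen.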
